A study of Homo sapiens with 16 samples.

Results

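Broad H3K4me3 promoter domains were described in the cell line MCF-10A, which derives from human breast epithelium, is not transformed and was grown in culture. Trimethylation of histone H3 at lysine 4 (H3K4me3) was mapped by CUT&RUN, in which an antibody directs a nuclease to the marked chromatin and the released DNA is sequenced. H3K4me3 libraries came from 3 cultures given vehicle (PBS) and 3 given 5 mM octanoic acid (OA), a medium-chain fatty acid, each for 24 hours. A further 3 vehicle and 3 OA libraries were made with an H3K27me3 antibody, and untreated MCF-10A cells gave 2 H3K4me3 and 2 IgG libraries. All 16 libraries come from the same cell line, so the results describe that line and not breast tissue. The members were chosen by merging the peaks of the 6 vehicle and OA H3K4me3 libraries wherever they shared at least 1 bp. A merged region was called a broad domain where it spanned 3000 bp or more, held a peak in all 6 libraries and lay within 3 kb of the start site of a protein-coding transcript. Of 28846 merged regions, 11071 had a peak in all 6 libraries, 9856 of these lay at a protein-coding promoter, and 196 were broad domains. The remaining 9660 promoter regions called in all 6 libraries served for comparison and are termed the other promoters.

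H3K4me3 is deposited by methyltransferase complexes of the COMPASS family, which are drawn to unmethylated CpG-rich DNA, and marks the start sites of active and poised genes. At most active promoters it occupies a few nucleosomes on either side of the start site. At some genes it spreads over a longer stretch, mostly into the transcribed unit, and such broad domains are known in many cell types for marking regulators of cell identity, as well as highly transcribed genes. H3K27me3 is the repressive mark of Polycomb, and promoters with both marks are termed bivalent.

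The DNA just upstream of the start site is shown for 4 domains on which later results turn and, as a contrast, for PSMA3, a proteasome subunit with an ordinary narrow promoter. Each line gives the 200 bases before the RefSeq start site, 5′ to 3′ along the gene (GRCh38.p14), with CpG dinucleotides in capitals. The windows lie inside the called regions and overlap no annotated exon.
CPEB2 (chr4:15002281-15002480, plus strand): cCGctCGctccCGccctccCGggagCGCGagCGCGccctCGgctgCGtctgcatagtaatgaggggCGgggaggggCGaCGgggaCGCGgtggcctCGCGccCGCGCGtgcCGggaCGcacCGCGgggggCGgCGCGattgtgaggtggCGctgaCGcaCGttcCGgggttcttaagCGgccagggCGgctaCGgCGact
FOXO3 (chr6:108559625-108559824, plus strand): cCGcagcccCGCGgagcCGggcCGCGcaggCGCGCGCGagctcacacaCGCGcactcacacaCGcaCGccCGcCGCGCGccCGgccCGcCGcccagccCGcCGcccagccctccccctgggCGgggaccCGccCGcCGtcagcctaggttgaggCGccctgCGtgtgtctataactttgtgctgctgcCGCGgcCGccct
SPRY2 (chr13:80341127-80341326, minus strand): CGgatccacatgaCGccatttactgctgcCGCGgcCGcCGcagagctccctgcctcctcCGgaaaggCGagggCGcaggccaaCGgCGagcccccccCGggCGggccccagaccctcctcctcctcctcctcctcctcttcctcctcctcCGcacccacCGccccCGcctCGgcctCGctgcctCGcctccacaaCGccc
TXNIP (chr1:145996580-145996779, minus strand): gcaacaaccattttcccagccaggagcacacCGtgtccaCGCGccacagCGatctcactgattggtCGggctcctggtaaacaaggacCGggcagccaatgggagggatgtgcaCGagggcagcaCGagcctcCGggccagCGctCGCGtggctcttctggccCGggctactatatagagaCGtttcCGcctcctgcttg
PSMA3 (chr14:58244643-58244842, plus strand): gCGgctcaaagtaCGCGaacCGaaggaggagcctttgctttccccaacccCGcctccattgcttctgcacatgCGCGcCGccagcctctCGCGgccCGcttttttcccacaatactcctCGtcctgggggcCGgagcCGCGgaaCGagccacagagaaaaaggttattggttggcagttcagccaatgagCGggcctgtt
These windows held 35 CpGs at CPEB2, 32 at FOXO3, 20 at SPRY2 and 15 at TXNIP, beside 17 at PSMA3. The number of CpGs right at the start site therefore overlapped between the domains shown and the narrow promoter. The same held across RefSeq promoters of 300 bp, from 250 bases before to 50 after the start, where the median was 27 CpGs for 196 matched domain genes and 27 for 8647 matched genes at other promoters.

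Domains and other promoters differed in the wider sequence around the start site, which the rule did not use. Within 1.5 kb on either side of the canonical start site, the median domain held 197 CpGs, against 135 at other promoters (n = 180 and 8835 regions with a canonical start site inside). The GC content of the same windows had a median of 58.9% in domains and 53.3% elsewhere, and the observed over expected CpG ratio was 0.764 against 0.643. Domains differed widely among themselves. The start site window of FOXO3 held 328 CpGs and that of CPEB2 289, whereas TXNIP had 69. Across all 9015 promoter regions with a canonical start site, mean covered length and CpG number had a Spearman's rho of 0.481, and within the 180 domains it was 0.229. These correlations are across regions of the same libraries, which are not independent replicates.

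The gene structure under the domains differed too. First exons had a median length of 294.5 bp in domains and 181 bp at other promoters, and 62 of 180 domain genes (34.4%) had a first exon of 500 bp or more, against 11.6% of the others. Single-exon canonical transcripts accounted for 8 of 180 domain genes (4.44%), beside 1.91%. SOX4, a single-exon gene, had a domain that began 24 bp before the start site and reached 3167 bp into its exon of 4869 bp. Start sites on both strands were found in 43 of 196 domains (21.9%) and in 12.6% of other promoters. At least 2 genes had their start sites in 46 domains (23.5%), beside 14.5% of other promoters, and 4 domains held those of 3 or more genes, among them NME3/EME2/MRPS34, HSPD1/HSPE1/HSPE1-MOB4 and ZNF580/ZNF581/CCDC106. No test was run on these shares, because a longer region has more room for start sites.

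The domains extended mainly into the gene. At the 134 domains and 7442 other promoters with start sites of a single gene and direction, the merged region reached a median of 1020.5 bp upstream and 2294.5 bp downstream in domains, and 419 bp and 1074 bp at other promoters. The downstream reach exceeded the upstream reach in 104 of the 134 domains (77.6%) and in 89.4% of other promoters. The downstream edge lay within the first exon or first intron in 61.2% of domains and 83.0% of other promoters. At 2000 bp downstream of the start site, a peak covered between 9.70% (vehicle 3) and 45.5% (vehicle 1 and vehicle 2) of the domains, and at most 2.88% of other promoters in any library. Coverage directly upstream of the start site differed between libraries. At 100 bp upstream, a peak covered 53.7%, 72.4% and 50% of the domains in the vehicle libraries and 20.9%, 47.0% and 86.6% in the OA libraries, whereas at 500 bp downstream it covered 74.6% to 94.8%. In OA 1 and OA 2 fewer domains were covered at 100 bp than at 600 bp upstream (20.9% against 39.6%, and 47.0% against 60.4%), whereas in the other 4 libraries coverage at 100 bp was the higher.

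**Figure D1:**
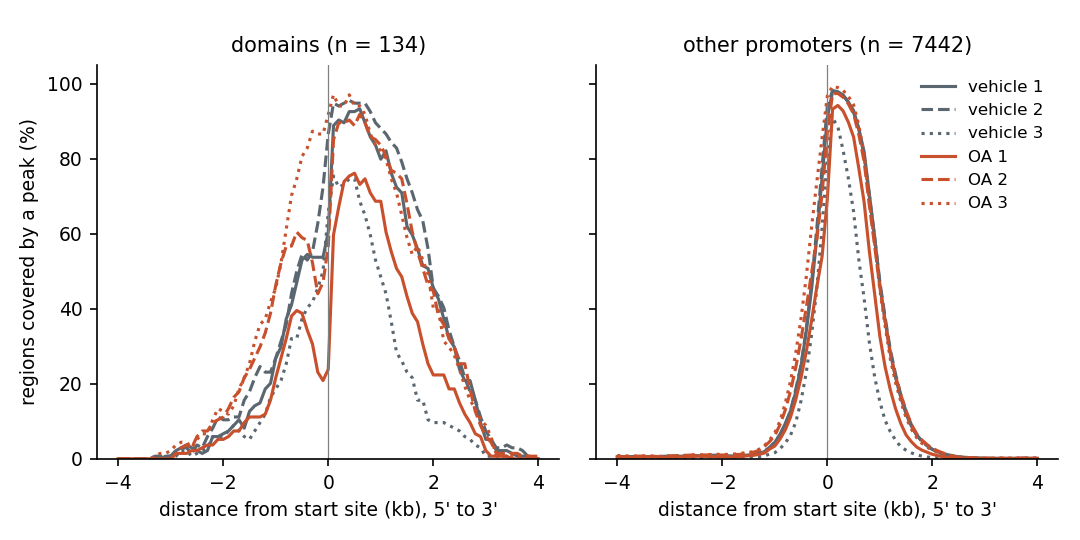
Share of regions covered by a called H3K4me3 peak (vertical axis, percent) against the distance from the canonical start site in kb, with the gene running to the right, for 134 domains (left) and 7442 other promoters (right). Lines are the 3 vehicle (grey) and 3 OA (orange) libraries. The domains are wider on both sides, reach farther downstream, and the OA 1 and OA 2 lines dip just before the start site.

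Breadth was a property of the merged regions more than of any library. The merged width ran from 3000 to 4368 bp with a median of 3230.5 bp, beside 1569 bp at other promoters. The covered length, the number of bases of a region under called peaks in a given library, averaged 2453, 2708 and 1530 bp per domain in vehicle 1, 2 and 3, and 1725, 2602 and 2803 bp in OA 1, 2 and 3. Vehicle 3 and OA 1 were therefore the narrow libraries, 1 in each group. Of the 196 domains, 111 were covered over 3000 bp or more in at least 1 library, 49 in at least 2, 28 in at least 3, 8 in at least 4 and 0 in all 6. CPEB2 alone passed 3000 bp in 5 libraries. Among those that passed in 4 were FOXO3, ANP32A, YWHAZ, IRX3, SLK and PYGB. The other 85 domains reached 3000 bp only when calls of several libraries were joined. An unbroken peak in each of the 6 libraries was found at 7 domains (3.57%), which are TSC22D2, GART/SON, RPRD2, SLC38A1, FBXL15/PSD, PPP1R15A and ATF3, and at 71.6% of other promoters. The word broad thus describes the union of 6 libraries, and constitutive means only that a peak was called in each of them.

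**Figure D2:**
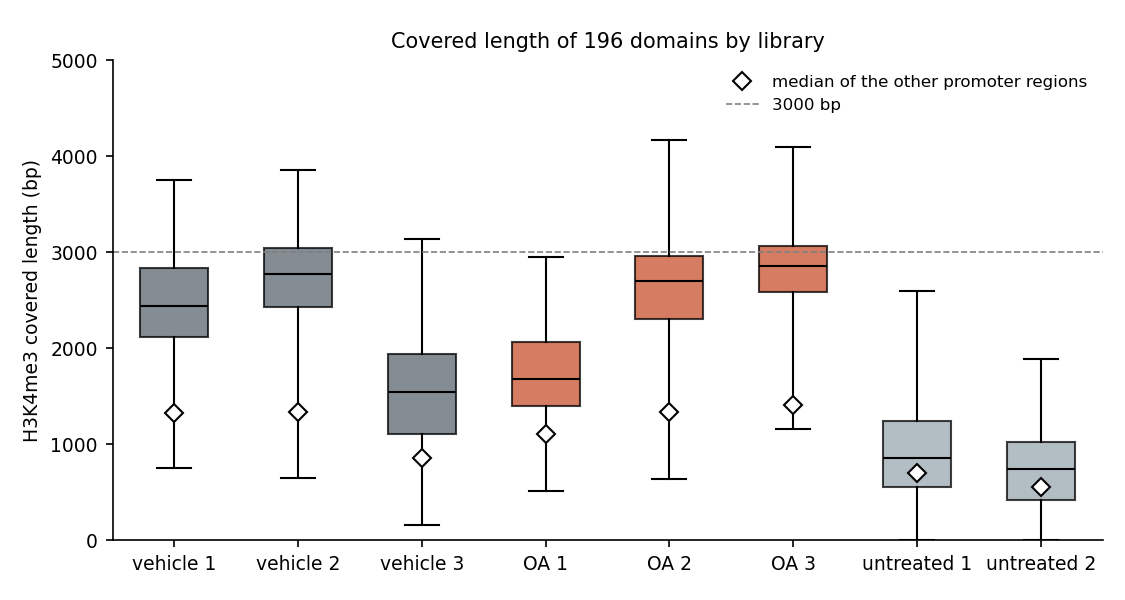
Covered length in bp (vertical axis) of the 196 domains in each of the 8 H3K4me3 libraries. Boxes span the quartiles with the median as a line, whiskers reach the lowest and highest domain, and diamonds mark the median of the other promoters. Vehicle 3, OA 1 and the untreated libraries lie below the other 4, and the upper quartile is above the dashed line at 3000 bp in vehicle 2 and OA 3 alone.

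The 2 narrow libraries were also those with the fewest reads on the domains. The number of reads at the strongest summit of a domain, recovered from the deposited fold and p-value, had a median of 108.5, 181 and 40.5 in vehicle 1 to 3 and of 51.5, 144.5 and 133 in OA 1 to 3. Vehicle 3 gave the narrowest call at 116 domains and OA 1 at 78, while the widest call fell to OA 3 at 74 domains and to vehicle 2 at 72. The part that depth played in the length of a call was not tested. The spread between libraries at a given domain was accordingly wide. The highest covered length exceeded the lowest by a median of 1.13 on the log2 scale and by more than 1 at 125 domains. SLC12A2, a sodium, potassium and chloride cotransporter, was the steadiest, with 2590, 3098 and 2700 bp in vehicle and 2483, 3038 and 3022 bp in OA. The 5 widest ranges belonged to MISP3 and DUSP5 (4.02 on the log2 scale each), NDRG1 (3.73), PPP1R9B (3.59) and ZFP36L1 (2.66). DUSP5 covered 2333, 3078 and 191 bp in vehicle and 1336, 3002 and 3094 bp in OA, with vehicle 3 far below the other 5 libraries.

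The members just inside and just outside the width limit were alike in covered length. SPRY2 (3000 bp wide), ATF3 (3000 bp) and CRAMP1 (3003 bp) had mean covered lengths of 2324, 1380 and 2092 bp, and RPL12/LRSAM1 (2999 bp), SRP54 (2997 bp) and ARHGAP11B (2997 bp), which missed the limit, had 2293, 2329 and 2175 bp. In all, 57 regions missed the limit by 100 bp or less and 45 passed it by less than 100 bp. Ranked by mean covered length instead of merged width, 103 of the 196 domains were among the 196 longest promoter regions, and 86 promoters that are no domains exceeded the median domain.

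The longest domains included those of several regulators of translation, transcription and signalling, beside genes of other roles. CPEB2, which binds cytoplasmic polyadenylation elements in mRNA, led with 3330 ± 487 bp (mean ± SD over the 6 libraries). Its domain (chr4:15001492-15005354, hg38) began 989 bp upstream of the start site, ran 2874 bp into the gene and took in the whole first exon of 1855 bp. It was covered over 3754, 3802 and 3131 bp in vehicle and 2512, 3204 and 3574 bp in OA. All but 1 of the 6 libraries, OA 1, lay above 3000 bp.

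FOXO3 (chr6:108558701-108562731), a transcription factor held in the cytoplasm by insulin and growth factor signalling, was covered over 3298, 3688 and 2053 bp in vehicle and 2779, 3318 and 3668 bp in OA, with a mean of 3134 ± 624 bp. FAT1, a giant protocadherin, had a mean of 3104 ± 739 bp. Further leaders had means between 2822 and 2952 bp. They were PPP1R15B, a subunit that directs a phosphatase to the initiation factor eIF2α, ANP32A, the gene of an acidic nuclear phosphoprotein, the ubiquitin ligase genes TRIM8 and RNF139, SOX4, MYC, SPRY1, the 14-3-3 protein gene YWHAZ, FOXO1, FAM72A/SRGAP2 and SLC12A2. MYC, a transcription factor of cell growth, covered 2787, 3401 and 2125 bp in vehicle and 1798, 3285 and 3834 bp in OA. Vehicle and OA libraries overlapped at every one of these domains as called. Once lengths were centred on the library medians, CPEB2, ANP32A, RNF139 and FAM72A/SRGAP2 were shorter in all OA libraries than in any vehicle library. FAM72A/SRGAP2 belongs to a family of near-identical gene copies on chromosome 1, of which FAM72C and SRGAP2B/FAM72D are domains as well, so reads may be split between copies and these 3 are uncertain.

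**Figure D3:**
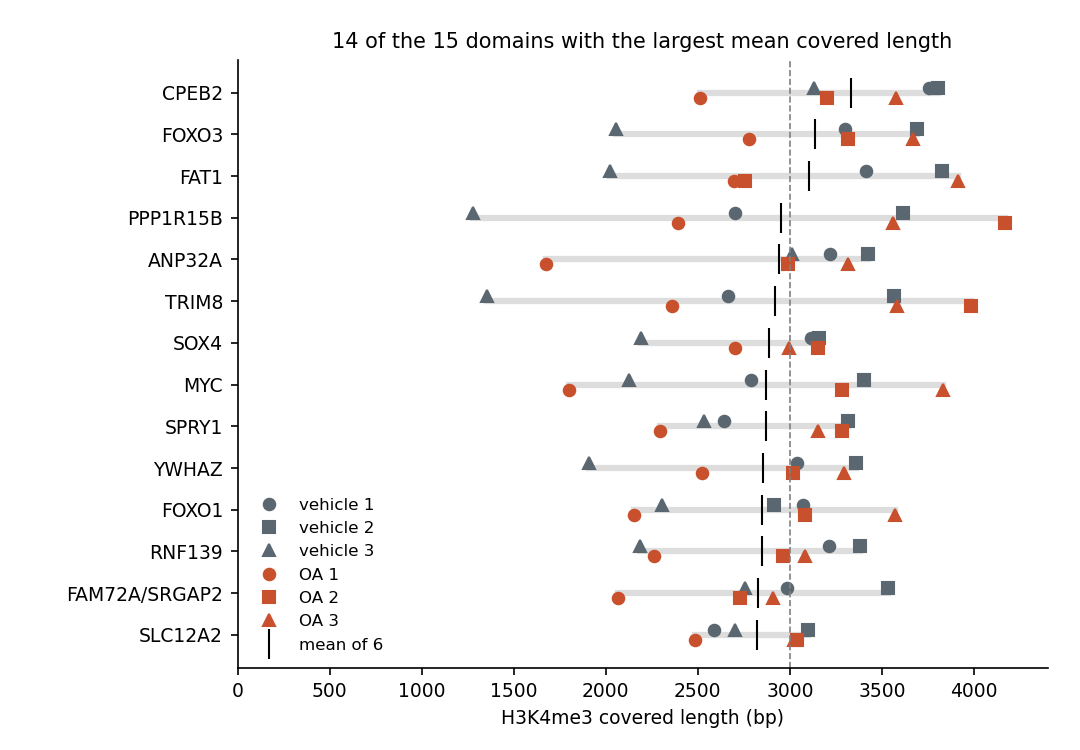
Covered length in bp (horizontal axis) of 14 of the 15 domains with the largest mean covered length, with 1 symbol per library for 3 vehicle (grey) and 3 OA (orange) libraries, and a bar at the mean of the 6. OA 1 and vehicle 3 supply the lowest value of every row, and the vehicle and OA symbols overlap in each for these lengths as called, which are not centred.

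Genes that define breast epithelial cells did not lead the list. The lists of basal, luminal progenitor, hormone-sensing luminal and pan-epithelial genes hold 94 genes. Of these, 46 (48.9%) had a promoter region called in all 6 libraries, beside 10771 of all 19663 protein-coding genes. Of the 46 genes with a region, 4 lay in a domain (8.70%). Among all 10771 genes with such a region, 244 lay in a domain (2.27%). The domain genes were SOX4 from the luminal progenitor list, GATA3 from the hormone-sensing list, ESRP2 from the pan-epithelial list and ITGB4 from the basal list, 1 from each. SOX4 alone was among the 15 longest, and ITGB4 stood at rank 189 of 196. Lists of fibroblast, endothelial, immune, adipocyte, neural and hepatocyte genes, which serve as a check on the cells, hold 80 genes. Of these, 6 had a region, beside 10771 of all 19663 protein-coding genes, and 0 lay in a domain. With 2.27% of all genes in a domain, 6 genes are too few for this 0 to be informative. The longest was the fibroblast gene TWIST2, with a mean of 2043 ± 128 bp (rank 492 of 9856 promoter regions). TWIST1 had a mean of 1651 bp, and CEBPA, MITF, LIPE and MAP2 had means between 764 and 1137 bp.

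SOX4, a transcription factor of progenitor cells, was covered over 3115, 3159 and 2192 bp in vehicle and 2700, 3151 and 2993 bp in OA (chr6:21593727-21596917). GATA3, a transcription factor of luminal differentiation, had 2512, 2799 and 770 bp in vehicle and 1581, 3555 and 3039 bp in OA (chr10:8053603-8057206). ESRP2, an epithelial splicing regulator, covered 2535, 2149 and 1042 bp and 1339, 2642 and 3134 bp. ITGB4, the integrin of hemidesmosomes, had 2337, 1933 and 850 bp and 1375, 1449 and 1950 bp. In all 4 genes the lowest value came from vehicle 3, and the 2 groups overlapped.

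Most basal identity genes carried H3K4me3 narrower than that of the domains. Of 20 basal genes with a region, 1 was a domain (5.00%) and their median mean covered length was 1476 bp, beside 1290 bp over all genes. Means were 1447 ± 377 bp at KRT5, the basal keratin, 1425 ± 200 bp at EGFR, 1452 ± 235 bp at CDH3, the P-cadherin gene, and 1068 ± 512 bp at KRT17. KRT5 ranked 3140 among the 9856 promoter regions. TP63, a transcription factor that defines basal epithelium, had no promoter region called in all 6 libraries. Among epithelial genes that are no domains, the largest means were those of SFN, an epithelial 14-3-3 protein, with 2080 ± 344 bp in a region of 2702 bp, KLF5 with 2021 ± 524 bp in 2738 bp, and DST, a linker of hemidesmosomes to keratin, with 2020 ± 208 bp in 2346 bp. Although few were domains, 14 of the 46 epithelial genes (30.4%) were among the 1000 promoters of largest mean covered length, beside 1292 of all 10771 genes. The basal list had the lowest median of the 4 epithelial lists. The luminal progenitor list had 1608 bp, the hormone-sensing list 1659 bp and the pan-epithelial list 1659.5 bp, and the 46 genes together had 1650 bp.

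Genes of the immediate-early response and of feedback on growth factor signalling supplied more domains. Their median mean covered length, 1670 bp, was nevertheless close to the 1650 bp of the 46 epithelial genes. Among the 1000 promoters of largest mean covered length were 20 of 47 such genes (42.6%). Of 47 genes of both lists with a region, 11 lay in a domain (23.4%, beside 2.27% of all genes), and 2 of these, MYC and SPRY1, were among the 15 longest. From the AP-1 and immediate-early list these were MYC, FOSL2, JUN, FOS, ZFP36L1 and ATF3, 6 of 23. FOS, JUN and FOSL2 encode subunits of the AP-1 transcription factor. FOSL2 had a mean of 2471 ± 494 bp, JUN of 2240 ± 882 bp and FOS of 1902 ± 692 bp. JUN was covered over 2717, 2148 and 948 bp in vehicle and 1902, 2122 and 3603 bp in OA, and FOS over 1746, 1853 and 1242 bp and 1386, 1997 and 3189 bp. In both genes OA 3 was the longest library and vehicle 3 the shortest.

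From the list of EGFR ligands and feedback genes, 5 of 24 were domains. These were the Sprouty genes SPRY1, SPRY2 and SPRY4, whose products restrain receptor tyrosine kinase signalling, and the phosphatase genes DUSP4 and DUSP5, which inactivate MAP kinases. None of the 5 is a ligand. SPRY1 was the longest, with 2642, 3316 and 2534 bp in vehicle and 2294, 3285 and 3151 bp in OA. SPRY2 (chr13:80338634-80341633) covered 2219, 2999 and 2492 bp in vehicle and 840, 2786 and 2607 bp in OA, with the low value in OA 1. DUSP4 had a mean of 2548 ± 558 bp and SPRY4 of 2246 ± 757 bp.

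**Figure D4:**
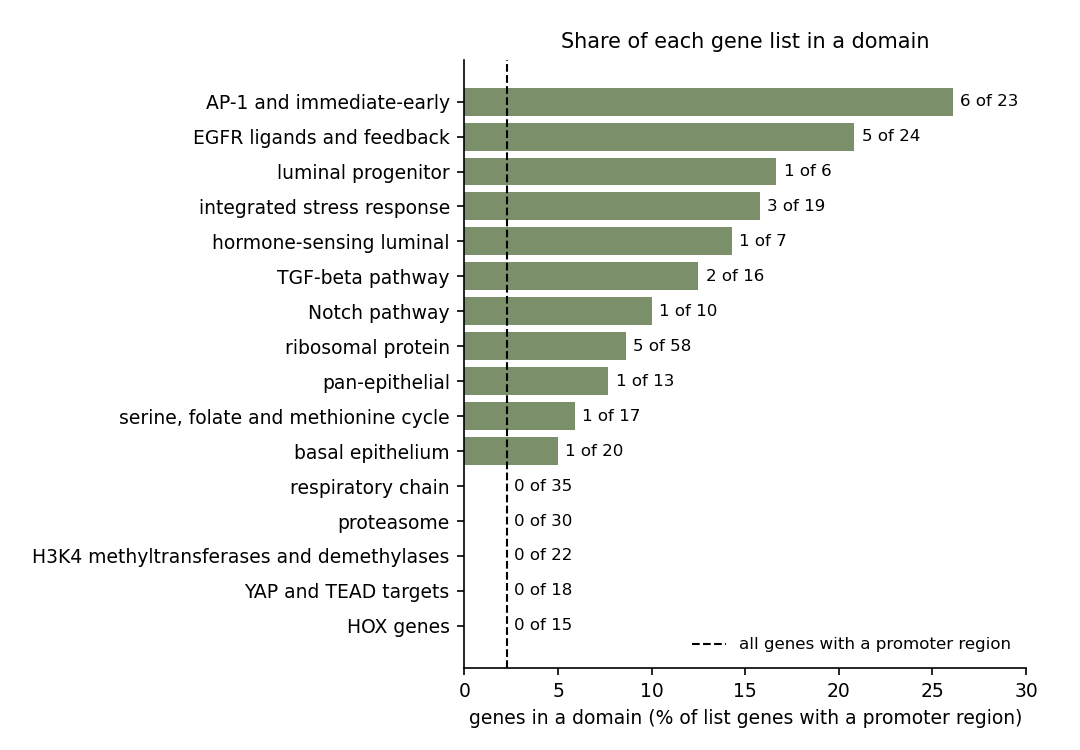
Share of the genes of each list that lie in a broad domain, in percent of the list genes with a promoter region called in all 6 libraries (horizontal axis), for lists with at least 5 such genes. The dashed line is the share over all 10771 genes (2.27%), and the counts stand beside the bars. The immediate-early and EGFR feedback lists stand highest with 6 of 23 and 5 of 24, and 5 lists have no domain.

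Other signalling lists gave small counts. SMAD7 and TGIF1, inhibitors of TGF-β signalling, were 2 of 16 TGF-β genes with a region, with means of 2534 ± 953 and 2484 ± 775 bp. JAG1, a Notch ligand, was the 1 domain among 10 Notch genes (2158 ± 562 bp). The integrated stress response list, which covers the response to phosphorylated eIF2α, had 3 of 19, namely DDIT4 (2503 ± 803 bp), PPP1R15A (1770 ± 813 bp) and ATF3 (1380 ± 875 bp), the last of which is also on the immediate-early list. MAT2A, which makes S-adenosylmethionine, the methyl donor of histone methylation, was the 1 domain among 17 genes of the serine, folate and methionine cycle list, at 2205, 2587 and 1805 bp in vehicle and 1543, 2429 and 2442 bp in OA. Of the 18 YAP and TEAD targets, 22 H3K4 methyltransferases and demethylases and 15 HOX genes with a region, 0 were domains. The nearest of these was ASH1L, a histone methyltransferase gene, with a mean of 2671 ± 371 bp in a region of 2953 bp that missed the width limit.

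Housekeeping complexes differed from each other. Ribosomal protein genes contributed 5 of 58 (8.62%), with means of 2787 ± 391 bp at RPL7/RDH10, 2142 ± 868 bp at TMEM238/RPL28, 2115 ± 526 bp at SLC18B1/RPS12, 2074 ± 1011 bp at RPL3 and 1998 ± 493 bp at RPL37. Neither the 30 proteasome genes nor the 35 respiratory chain genes contributed any. PSMA3, shown above, covered 1239, 1620 and 985 bp in vehicle and 807, 1811 and 1782 bp in OA. No test of these shares was run, since the domains were selected on the lengths themselves and the lists were drawn up with earlier results of these data known.

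Further groups of members were formed by known role after their values had been seen, and are named only to describe the list. The largest group, 17 developmental and epithelial transcription factor genes, included SOX4, IRX3, NR3C1, GATA3, GATA2 and IRX5, with means from 1626 to 2885 bp. As called, the OA mean was above the vehicle mean at 17 of these 17 and at 128 of all 196 domains. Once lengths were centred on the library medians, it was above at 11 of the 17 and 81 of the 196. Since this group was formed with its values known, no direction is read from its counts. Genes of FOXO, insulin and growth factor signalling (7 domains, including FOXO1, FOXO3, IGF1R, IRS2 and TXNIP) had a median of 2531 bp, against 2278 bp over all domains. Adhesion and cytoskeleton genes (10, including FAT1, ITGB1, PLEC and ACTB) had a median of 2196 bp and RNA-binding protein genes (8, including 5 of the HNRNP family and PTBP1) of 2113 bp. Chaperone genes (6 domains, including HSPA5, HSPA8 and HSPD1/HSPE1) reached 1914 bp. There were 3 domains each at genes of apoptosis inhibitors (MCL1, BCL2L1 and CFLAR) and at core histone gene pairs. Amino acid transporter genes gave 5 domains, of which SLC3A2 had 2 at separate start sites. Genes of glycolysis and glycogen breakdown gave 4, among them ALDOA, GAPDH and PKM. By mean covered length, 59 domains exceeded 2500 bp, 100 lay between 2000 and 2500 bp and 37 lay below 2000 bp.

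OA and vehicle were then compared over the domains. The rule did not use the group of a library, but it chose the members on peak widths of these same libraries. A region could therefore reach 3000 bp through the group in which it was long, so the rule favours such regions. The mean covered length per domain was 2230 ± 620 bp in vehicle and 2377 ± 573 bp in OA (SD, n = 3), a difference of 146 bp. Replicates of a group differed by more than that, and a two-sided exact permutation test over libraries gave p = 0.6, the smallest p that this design allows being 0.1. It depended on single libraries, being −202 bp without vehicle 3 and −98.9 bp without OA 3. Other promoters went from 1207 ± 277 to 1319 ± 171 bp (exact p = 0.5). The ratio of domains to other promoters was 1.83 ± 0.125 and 1.78 ± 0.218 (exact p = 0.8). The domains took up 2.70%, 3.11% and 2.90% of all bases under H3K4me3 peaks in the vehicle libraries and 2.37%, 2.83% and 2.59% in the OA libraries, a difference of −0.306 percentage points (exact p = 0.2), and the groups overlapped.

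No domain passed the test for a change in covered length. In limma, fitted to log2 covered length over all 11071 regions called in all 6 libraries, 0 domains were longer and 0 shorter in OA at an adjusted p under 0.05, and the same was true of all regions (0% called in each direction). At an unadjusted p under 0.05 in limma there were 7 of 196 domains, 4 longer and 3 shorter. Of all 11071 regions there were 266, with 248 longer and 18 shorter. The SE of the log2 difference had a median of 0.31 over the domains (0.19 to 0.98), so a domain that missed the threshold is not shown to have kept its length. The log2 difference between OA and vehicle was above 0 at 66.3% of domains and 74.3% of all regions, with medians of 0.10 and 0.13. After centring each library on its median region, the shares were 41.3% and 45.7% and the medians −0.06 and −0.03, so the direction over the domains as a whole depends on how libraries are scaled.

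At 8 domains the 3 OA libraries did not overlap the 3 vehicle libraries. OA was longer at 5 domains (2.55%, beside 6.68% of all 11071 regions) and shorter at 3 (1.53%, beside 0.533%). With centred lengths the counts were 7 (3.57%, beside 7.60%) and 28 (14.3%, beside 8.80%), and 7 of the 8 domains, all but H2BC4/H2AC6, kept their gap and direction. The domains longer in OA as called were PPP1R15A, MISP3, TXNIP, NME3/EME2/MRPS34 and H2BC4/H2AC6, and those shorter were ZFP36L1, SLC18B1/RPS12 and IFT80/SMC4. Such domains may have met the width limit through the group in which they are long. The differences and p-values given below for single domains are therefore not independent of the rule.

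PPP1R15A, a stress-induced gene whose product, like that of PPP1R15B, recruits a phosphatase to eIF2α, had the smallest p of the domains. It covered 1203, 1172 and 900 bp in vehicle and 1882, 2659 and 2801 bp in OA (chr19:48872269-48875303), so that all OA libraries exceeded all vehicle libraries. The limma log2 difference was 1.16 ± 0.22 (SE), with an unadjusted p of 0.000855 and an adjusted p of 1.00 in limma. No vehicle library covered more than 1203 bp, so these values are not independent of how the domain was chosen. Reads at its summit were 78, 65 and 27 in vehicle and 62, 153 and 154 in OA.

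MISP3 covered 755, 644 and 160 bp in vehicle and 1614, 2012 and 2592 bp in OA, a log2 difference of 2.25 ± 0.58. It had the shortest mean of all domains and reached 3000 bp in no library. TXNIP, an inhibitor of thioredoxin and of glucose uptake, rested on 2147, 1613 and 1014 bp in vehicle and 2369, 2645 and 2631 bp in OA (chr1:145994294-145997345), a log2 difference of 0.74 ± 0.27. CFLAR, an inhibitor of caspase activation, and CITED2, a transcriptional coregulator, had the next smallest p among the domains longer in OA, with log2 differences of 0.89 ± 0.37 and 0.60 ± 0.27 and overlapping groups.

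ZFP36L1, whose product promotes decay of AU-rich mRNA, lay in the other direction. It covered 2033, 3443 and 1906 bp in vehicle and 543, 638 and 1161 bp in OA (chr14:68789604-68793090), a log2 difference of −1.68 ± 0.35 with an unadjusted p of 0.00151 and an adjusted p of 1.00 in limma. Reads at its summit were 88, 195 and 49 in vehicle and 37, 115 and 109 in OA, and the part of depth at this domain was not tested. SLC18B1/RPS12 had 2249, 3019 and 2240 bp in vehicle and 1513, 1759 and 1911 bp in OA (−0.53 ± 0.19), and MIDN had 3248, 3010 and 1710 bp and 593, 1373 and 1788 bp (−1.17 ± 0.43), with 1 overlap. IFT80/SMC4 and SKA2/PRR11 followed with −0.50 ± 0.22 and −0.49 ± 0.24. None of these domains passed after adjustment.

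**Figure D5:**
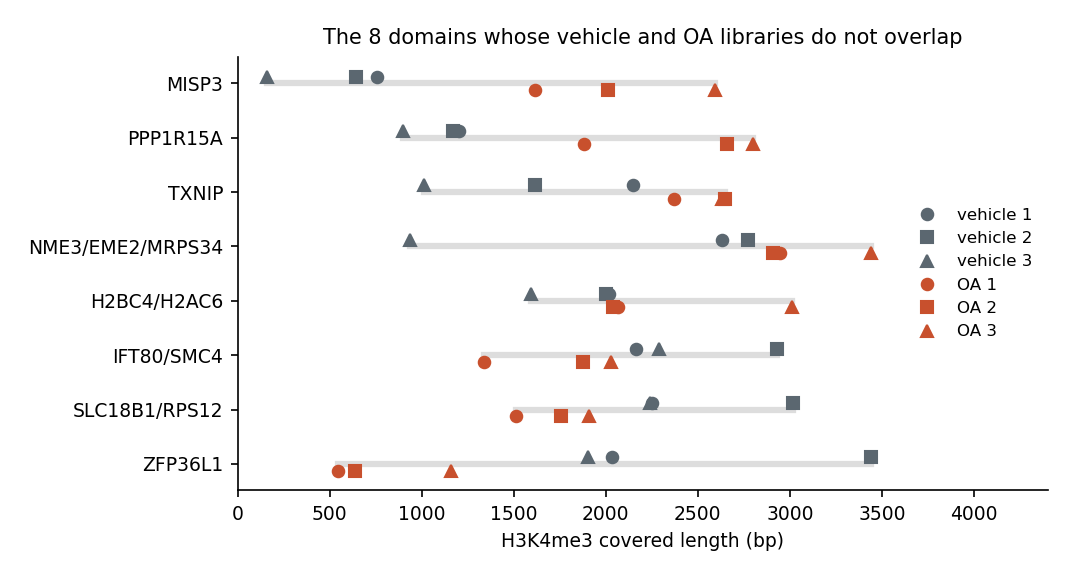
Covered length in bp (horizontal axis) of the 8 domains at which the 3 vehicle (grey) and 3 OA (orange) libraries do not overlap, with 1 symbol per library. The upper 5 are longer in OA and the lower 3 shorter, with the widest gaps at MISP3, PPP1R15A and ZFP36L1 and a gap of 22 bp at H2BC4/H2AC6.

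The untreated H3K4me3 libraries played no part in choosing the domains. They had fewer peaks (12924 and 11242) than the vehicle and OA libraries (16086 to 21033). A peak was called at 186 domains (94.9%) in untreated 1 and at 169 (86.2%) in untreated 2, beside 87.8% and 81.0% of other promoters. The domains were covered over 907 and 738 bp on average and the other promoters over 689 and 560 bp, a ratio of 1.32 in both libraries. In the vehicle and OA libraries, on which the width was chosen, the ratio was between 1.53 and 1.97. TSC22D2, of the TSC22 domain family, had the longest call in untreated 1 with 2597 bp, and 1734 bp in untreated 2, and CPEB2 had 1642 and 1560 bp. A peak was found in both untreated libraries at 164 domains (83.7%), beside 77.2% of other promoters. SPRY1, APOLD1, TRIB2, GATA2 and EEF1A1 had none in either (2.55% of domains, beside 8.40% of other promoters). The domains are wider than the other promoters, so a peak has more room to fall in them. In the IgG libraries, a peak touched 3 domains in the first (FAM72A/SRGAP2, FAM72C and GART/SON, over 262 to 357 bp) and 0 in the second. The share in the first, 1.53%, is close to the 1.19% of other promoters.

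H3K27me3 was called at few domains. In vehicle, 1, 1 and 1 domains had an H3K27me3 peak, and in OA 5, 0 and 0, a difference of 0.667 domains with an exact two-sided permutation p of 1. Without OA 1 of this antibody the difference was −1. Over the 6 libraries 5 domains (2.55%) had a peak, beside 2.12% of other promoters. The domain in all 3 vehicle libraries was the same, ATF3, a stress-induced transcription factor, with 713, 740 and 672 bp under H3K27me3 in vehicle and 361, 0 and 0 bp in OA. Its H3K4me3 covered 1636, 972 and 481 bp in vehicle and 1065, 1126 and 3000 bp in OA, so that OA 3 alone gave the domain its width. The other calls came from OA 1 alone, at FAM72A/SRGAP2 (649 bp), FAM72C (316 bp), NPM1 (209 bp) and ST3GAL1 (201 bp).

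Short motifs in the 300 bp RefSeq promoters were counted on both strands for 196 of the 244 domain genes that matched by symbol. The TATAAA hexamer was present in 21 promoters of domain genes (10.7%), in 4.86% of genes at other promoters and in 11.95% of all 27305 RefSeq promoters. The ETS motif CCGGAAG was present in 13.3% of domain promoters, 22.0% of other promoters and 10.7% of all. The AP-1 motif TGANTCA stood at 4.59%, 3.82% and 7.76%, the CRE motif TGACGTCA at 3.06%, 3.63% and 1.98%, the SP/KLF motif GGGCGG at 71.4%, 72.2% and 44.6%, and the E-box CACGTG at 9.18%, 10.4% and 7.43%. A CArG box was found in 0.51%, 1.04% and 1.29%. A match of letters is a description and shows no binding.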

How the data were processed

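CUT&RUN was performed on MCF-10A cells seeded in biological triplicate, per the methods of the study. Peaks had been called library by library by the authors, with MACS2 2.2.7.1 (submitters' processing notes) for H3K4me3 and IgG and, by the methods, SICER2 for H3K27me3, although the H3K27me3 lists have the broadPeak layout. Aligner, handling of duplicate reads and control of the caller are not given in the sources used here. The deposited lists give, on hg38 per the labels, the position of each peak, its fold enrichment (a ratio to local background) and 2 values of the authors' caller, a p-value and a q-value as −log10. The lists were not scaled to each other, and longer calls can follow from deeper sequencing. Read totals were not analysed here; the reads at a summit were solved from fold and p-value and accepted within 0.05 of a whole number, which held for 98.8% to 100% of promoter regions per library.

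Peaks on autosomes, X and Y were merged at 1 bp overlap. Start sites are those of protein-coding transcripts in GENCODE release 44 (same build), and promoter sequences are from RefSeq, GRCh38.p14. Covered length, a value in bp and not a count, was compared between 3 vehicle and 3 OA libraries with two-sided exact permutation tests on library means. Per region it was compared with limma (trend, log2 covered length, Benjamini-Hochberg adjusted over 11071 regions, threshold 0.05), which was tested on simulated data. There the fit to lengths as called missed most of the smaller planted changes and made some false calls. P-values measure the spread between these cultures of 1 cell line. The named domains are the 15 longest by mean covered length (1 of which is not reported here), up to 6 domain genes per gene list, the 5 in each direction with the smallest limma p, the 3 nearest the width limit on either side, the 5 with the most H3K27me3, the 5 with the widest range and those with the most start sites; other names were added after their values were seen. Members, lists and tests were chosen with earlier results of these data known. R 4.3.3, limma 3.58.1, Python 3.11.15, pandas 2.3.3, scipy 1.17.1 and matplotlib 3.10.9 were used. The supplementary tables and expression data of the study were not used here.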

Additional observations from a re-analysis of the deposited data

How the results depend on the processing

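The 196 domains became 192 with peaks at a q-value of at most 1e-05, 193 with the same number of strongest peaks in each library and 193 with the start site inside the region, and between 145 and 199 when 1 of the 6 H3K4me3 libraries was left out. A width of 4000 bp or more left 11. A covered length of 3000 bp or more in each library left none, so that alternative gives no further value, and in at least 1 library it left 111, an alternative chosen after seeing the data, as was leaving out vehicle 3 and OA 1 together (197). The 15 leading domains remained domains, with mean covered lengths within 1 SD, at the stricter q-value and at equal peak numbers. The difference in covered length between OA and vehicle ranged from −202 to 469 bp when 1 library was left out, and that in the share of covered length from −0.373 to −0.0968 percentage points. No alternative of the limma fit called a domain in either direction. The difference in domains with an H3K27me3 peak was −0.667 for peaks covering at least 500 bp, −0.333 with equal numbers of H3K27me3 peaks, and −1 to 1.5 when 1 library was left out. The cause of these changes was not tested. Same-numbered vehicle and OA libraries correlated in their deviations from the group means with r of 0.0449, 0.157 and −0.232 over 11071 regions, below 0.1 in 2 of the 3 pairs, so they were not treated as pairs. No vehicle library correlated best with the OA library of its number, while OA 2 correlated best with vehicle 2. With a replicate block the difference in covered length was 146 bp (exact p = 1, smallest possible 0.25), the share −0.306 (p = 0.25), the H3K27me3 difference 0.667 domains (p = 1), and 0 domains were called. The depth behind the H3K27me3 lists is unknown, and domains missed in the shallower libraries may carry the mark.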

Other observations

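The share of promoter regions that were domains varied between chromosomes. Chromosome 8 held 14 of its 361 promoter regions called in all 6 libraries as domains (3.88%), with 10 of 234 (4.27%) on its long and 4 of 127 (3.15%) on its short arm. Chromosomes 13 (3.26%), 6 (3.10%), 14 (3.09%) and 10 (2.86%) followed. On chromosome 1 the long arm had 12 of 446 (2.69%) and the short arm 7 of 579 (1.21%). The arms of the remaining chromosomes were not counted. Chromosome X held 1 of 300 (0.333%), EFNB1, an ephrin ligand. Over all chromosomes 196 of 9856 promoter regions (1.99%) were domains. No test of these shares was run.

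The peaks at domains had a lower fold over local background than other promoters but more reads at the summit. Control of the caller is not given, so how that background was measured is unknown. The median fold enrichment at the strongest peak of a domain was between 4.68 and 7.69 in the 6 libraries, lower in each than the 7.22 to 10.7 at other promoters, whereas the median number of reads at the summit, 40.5 to 181, was higher in each than the 35 to 126 at other promoters. The order of the domains by covered length was shared only in part between libraries. Spearman's rho over the 196 domains was between 0.325 and 0.584 for pairs of vehicle libraries, between 0.409 and 0.523 for pairs of OA libraries and 0.663 for the untreated pair. Between a vehicle and an OA library it was between 0.0585 (vehicle 3 and OA 3) and 0.512 (vehicle 1 and OA 1). Only vehicle 1 with OA 1 and vehicle 1 with OA 3 (0.353) reached the values found within groups. Every other vehicle and OA pair had at most 0.280, below the lowest value within a group (0.325). These correlations are across regions and carry no test.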
